A study of Drosophila melanogaster with 34 samples.

Results

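Methylation of ribosomal RNA was compared between heads of female Drosophila melanogaster kept at 29 °C and at 18 °C. The comparison used 8 of the 34 libraries of the series, 4 per temperature, chosen by their labels, and all 72 rRNA sites listed in each table. Flies of both groups had been held in darkness for 8 days. The labels give neither the genotype and age of the flies nor the number of heads per library. Another 4 libraries, from flies at 25 °C under the same darkness and time, entered the same fit so that the spread between libraries was estimated over 12 libraries. The tables hold rRNA positions only, so the labelled tissue was not checked against marker genes.

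Ribosomal RNA carries methyl groups on the 2′ hydroxyl of many riboses. Most are placed during ribosome assembly by fibrillarin, which acts within box C/D snoRNA particles, whose guide RNA pairs with the rRNA and so picks the nucleotide. A smaller number are placed by stand-alone methyltransferases. RiboMeth-seq reads these marks from their chemistry: alkali cannot break the bond beside a 2′-O-methylated ribose, so few fragments begin or end there. The methylation score compares the read ends at a site with those at its neighbours, and equals 1 where no fragment ends at the site. A value of 1 minus the score is therefore the ends left at the site relative to its neighbours, called the residual below.

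Sites are named by rRNA, base and position as in the tables, with m for the methyl group. The 28S rRNA holds 47 of the 72 sites, 18S rRNA 24 and 5.8S rRNA 1. A library's median site was covered by 67403 to 104242 reads at 29 °C and by 43515.5 to 97235.5 reads at 18 °C; individual sites had 119 to 355472. The 18 °C replicate 3 stood apart from the rest before any comparison between temperatures. It had the lowest coverage and the lowest mean score (0.939) of the 8 libraries. It also had the highest score of its group at 43 of 72 sites, which is not particular to it, since 29 °C replicate 1 did so at 44. Its read ends differed from those of the other 18 °C libraries with a chi-square of 23.1 to 26.9 per degree of freedom, against 4.10 to 10.9 among the other 3. The values at 29 °C were 1.78 to 6.13. At 44 of 72 sites it had fewer 3′ ends per coverage than any other 18 °C library, whereas at 3 sites, all of them guanosines, it had at least 2 times the highest of the others. The main results are therefore given with and without that library.

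Scores were higher at 29 °C at 14 sites and lower at 1 site (15 of 72, 20.8%; 19.4% higher, 1.39% lower; limma, adjusted p under 0.05). Of the 14 higher sites 11 had a mean score of at least 0.95 over the 8 libraries. The differences were small on the score scale, from 0.00732 to 0.0641 among the higher sites. Their residual at 29 °C was 0.263 to 0.771 times that at 18 °C. The 28S rRNA, with 47 of the 72 sites, held 9 of the 14, 18S rRNA with 24 sites held 4, and 5.8S rRNA with 1 site held 1. Leaving out 18 °C replicate 3 gave 22 higher sites and 1 lower (23 of 72, 31.9%; 30.6% higher). Of the 15 sites called with all libraries 14 kept their call, 28S Gm1108 lost it, and 9 further sites passed. The groups did not overlap at 10 of the 15 called sites, against 13 of all 72 (18.1%), and without that library at 22 of 23, against 26 of 72 (36.1%). Counts moved with single libraries: 7 sites passed without 29 °C replicate 2, 8 without 18 °C replicate 2, and 9 without 18 °C replicate 4 or 29 °C replicate 1 or 4. They also moved with scaling, since after centring each library on its median score 9 sites were higher, all among the 14, and 21 were lower.

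**Figure D1:**
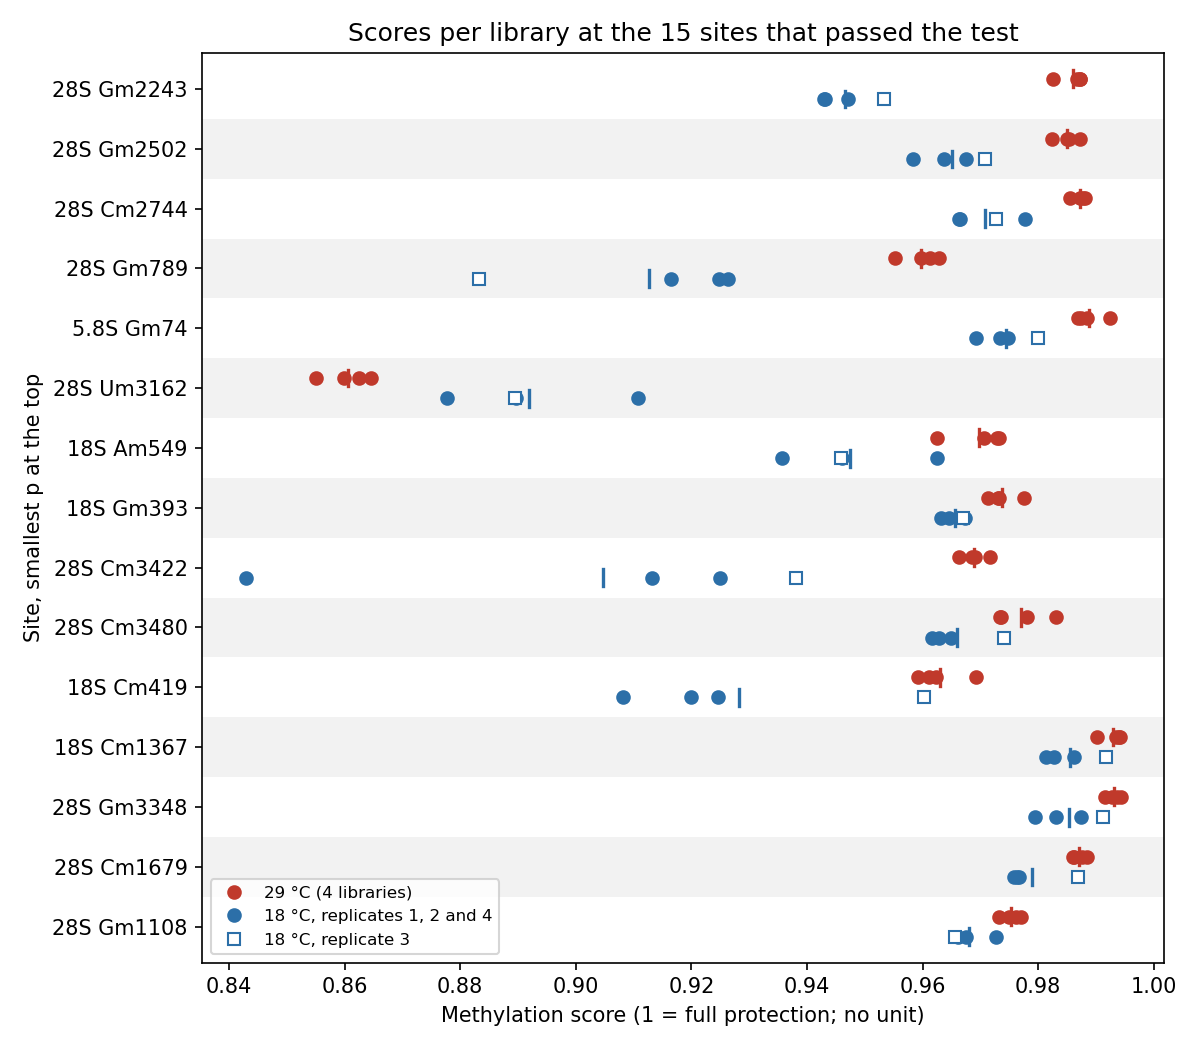
Methylation scores (x axis, no unit) of the 15 sites that passed, by library. Red circles above are the 4 libraries at 29 °C, blue symbols below those at 18 °C, open squares 18 °C replicate 3, and vertical ticks the group means. At 28S Gm2243 the 29 °C libraries lie at 0.983 to 0.987 and the 18 °C libraries at 0.943 to 0.953, and 28S Um3162 is the 1 site where the 29 °C libraries are lower.

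The lowest p of all belonged to 28S Gm2243, a guanosine with 1 listed guide RNA. Its scores were 0.987, 0.983, 0.987 and 0.987 at 29 °C, against 0.943, 0.947, 0.953 and 0.943 at 18 °C. The 2 groups lay far apart, and 18 °C replicate 3 was the nearest of its group to the 29 °C values. The difference was 0.0393 (95% interval 0.0333 to 0.0454; adjusted p = 2.73e-06, limma), and 0.0416 without 18 °C replicate 3 (adjusted p = 9.28e-07). The residual was 0.0141 at 29 °C and 0.0534 at 18 °C, or 0.263 times as much at 29 °C. Coverage at this site was at least 88586 reads in each library.

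28S Gm2502 came next and is 1 of 11 sites whose guide is annotated as unknown. It scored 0.987, 0.985, 0.982 and 0.985 at 29 °C, against 0.968, 0.964, 0.971 and 0.958 at 18 °C. No 18 °C library reached the lowest 29 °C value. The difference was 0.0199 (95% interval 0.0144 to 0.0253; adjusted p = 0.00031, and 7.99e-05 without 18 °C replicate 3), with 0.431 times the residual at 29 °C.

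28S Cm2744, a cytidine with 2 listed guides, had scores of 0.988, 0.986, 0.987 and 0.988 at 29 °C, against 0.966, 0.978, 0.973 and 0.966 at 18 °C. The 29 °C libraries were tightly grouped, with an SD of 0.00112, while those at 18 °C had an SD of 0.00548 (n = 4 each). The difference of 0.0164 passed (adjusted p = 0.00135, and 0.0012 without 18 °C replicate 3). At 5.8S Gm74, the only site in the smallest of the 3 rRNAs measured, the scores were 0.992, 0.989, 0.987 and 0.987 at 29 °C, against 0.975, 0.973, 0.980 and 0.969 at 18 °C. Again all 4 libraries at 29 °C lay above all 4 at 18 °C, by 0.0144 on average (adjusted p = 0.00525, and 0.00121 without 18 °C replicate 3).

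28S Gm789 had a lower level and a larger difference than these 4 sites. It scored 0.961, 0.960, 0.955 and 0.963 at 29 °C, against 0.925, 0.926, 0.883 and 0.916 at 18 °C. Here 18 °C replicate 3 was the lowest library, so leaving it out narrowed the difference, to 0.0373 against 0.0471 with all libraries. The call held both ways (adjusted p = 0.000632 without it and 0.00525 with it). These 5 sites, 28S Gm2243, Gm2502, Cm2744 and Gm789 and 5.8S Gm74, passed in all 23 other limma settings that were tried.

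28S Cm3422 showed the largest difference of the sites that passed. Its scores were 0.972, 0.966, 0.969 and 0.969 at 29 °C, against 0.925, 0.843, 0.938 and 0.913 at 18 °C. Replicate 2 of the 18 °C group was far below the others and gave that group an SD of 0.0424, against 0.00215 at 29 °C. The difference was 0.0641 with an interval of 0.0276 to 0.101 (adjusted p = 0.0225), and 0.0752 without 18 °C replicate 3 (adjusted p = 0.00363). The site did not pass without 29 °C replicate 1, 2 or 4 (adjusted p = 0.0570, 0.0538 and 0.0525). Its neighbour 28S Am3420, 2 bases away, differed by 0.000263, so the 2 methylated bases in the same stretch gave unlike values (the difference between them was not tested). At that distance each site counts among the neighbours in the other's score, so the 2 scores are not separate readings.

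In 18S rRNA, Am549 averaged 0.970 ± 0.00500 at 29 °C and 0.948 ± 0.0111 at 18 °C (SD over 4 libraries each; adjusted p = 0.0150), and the groups overlapped because 18 °C replicate 2 reached 0.963. Without 18 °C replicate 3 its adjusted p was 0.0131. It was the only adenosine among the 14 higher sites. 18S Cm419 averaged 0.963 ± 0.00441 at 29 °C and 0.928 ± 0.0224 at 18 °C (adjusted p = 0.0367). Replicates 1, 2 and 4 at 18 °C lay at 0.908 to 0.925, and replicate 3 at 0.960 lay within the 29 °C range. Without replicate 3 the difference was 0.0454 in place of 0.0347 (adjusted p = 0.000632). 18S Gm393 differed by 0.00823 (adjusted p = 0.0170) and did not pass after centring (adjusted p = 0.392). 18S Cm1367 differed by 0.00742 (adjusted p = 0.0414) and did not pass after centring either (adjusted p = 0.452). Leaving out 18 °C replicate 3 gave adjusted p-values of 0.00994 for Gm393 and 0.00206 for Cm1367. Other single libraries ended these calls: Cm419 did not pass without any of the other 7 (adjusted p 0.0709 to 0.0919), Cm1367 without 6 of them (0.0810 to 0.108), and Gm393 without replicate 2 of either group (0.0534 and 0.0538).

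The other 4 higher sites in 28S rRNA were Cm3480, Gm3348, Cm1679 and Gm1108, with differences of 0.0111, 0.00775, 0.00813 and 0.00732. Their adjusted p ran from 0.0339 at Cm3480 to 0.0470 at Gm1108, near the threshold. At Cm1679 the 29 °C libraries lay at 0.986 to 0.988 and 18 °C replicates 1, 2 and 4 at 0.976 to 0.977, whereas replicate 3 at 0.987 sat among the 29 °C values. Without that library Cm1679 gave an adjusted p of 0.000844, Cm3480 one of 0.00207 and Gm3348 one of 0.00319. Gm1108 was the exception, at an adjusted p of 0.0783 without it. Leaving out any other single library gave 0.0618 to 0.108 for Gm3348 and 0.0813 to 0.112 for Cm1679, so neither passed. Cm3480 did not pass without 5 of those 7 libraries (adjusted p 0.0835 to 0.0919), nor Gm1108 without 6 of them (0.0722 to 0.119).

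28S Um3162 was the single site with a lower score at 29 °C, and its guide is annotated as unknown. Scores were 0.855, 0.862, 0.865 and 0.860 at 29 °C, against 0.878, 0.911, 0.890 and 0.890 at 18 °C. No library of one group fell within the range of the other. The difference was -0.0314 (95% interval -0.0474 to -0.0154; adjusted p = 0.0150), and -0.0322 without 18 °C replicate 3 (adjusted p = 0.00994). At 0.861 and 0.892 the site is well below full protection in both groups. It did not pass on the log2 scale of neighbour mean over ends (adjusted p = 0.0658) or with the second deposited score (adjusted p = 0.315).

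The 9 sites that passed only without 18 °C replicate 3 were 18S Gm475, Am441, Um[Psi]568, Cm1303 and Um1357 and 28S Am1691, Gm1692, Cm3412 and Am3478. All 9 were higher at 29 °C. The largest was 18S Cm1303, which differed by 0.0353 without that library (adjusted p = 0.00573) and by 0.0262 with it (adjusted p = 0.0938). 18S Um1357 scored 0.978, 0.971, 0.970 and 0.971 at 29 °C, against 0.956, 0.942, 0.977 and 0.941 at 18 °C. As at 18S Cm419 and 28S Cm1679, replicate 3 alone reached the 29 °C range there. 28S Am3478 likewise lay at 0.965 to 0.973 at 29 °C, against 0.946, 0.951, 0.975 and 0.945 at 18 °C, and its adjusted p was 0.131 with all libraries and 0.00287 without replicate 3.

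18S Gm475 showed the opposite pattern. It scored 0.977, 0.971, 0.968 and 0.973 at 29 °C, against 0.951, 0.941, 0.819 and 0.940 at 18 °C. Replicate 3 was far below the rest of its group, so the difference was larger with it, 0.0595, yet did not pass (adjusted p = 0.103). Without it the difference was 0.0281 and passed (adjusted p = 0.00017). The library had 112 3′ ends per 10000 reads of coverage at this site, against 26.1 to 31.99 in the other 18 °C libraries.

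28S Gm1005 and 18S Gm1952 had large differences that rested on the same library. At 28S Gm1005 the scores were 0.985, 0.983, 0.981 and 0.982 at 29 °C, against 0.980, 0.979, 0.792 and 0.979 at 18 °C. The difference was 0.0499 with all libraries (adjusted p = 0.415) and 0.00304 without replicate 3 (adjusted p = 0.253). 18S Gm1952, the least protected of the 72 sites, averaged 0.125 ± 0.0303 at 29 °C and 0.0741 ± 0.192 at 18 °C (n = 4 each). Replicate 3 lay at -0.207 and the other 18 °C libraries at 0.125 to 0.224, so the difference of 0.0512 turned to -0.0424 without it, and neither passed (adjusted p = 0.724 and 0.286). 18S Am1272, annotated with an unknown guide, averaged 0.848 ± 0.0141 at 29 °C and 0.812 ± 0.0252 at 18 °C without passing (adjusted p = 0.113).

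**Figure D2:**
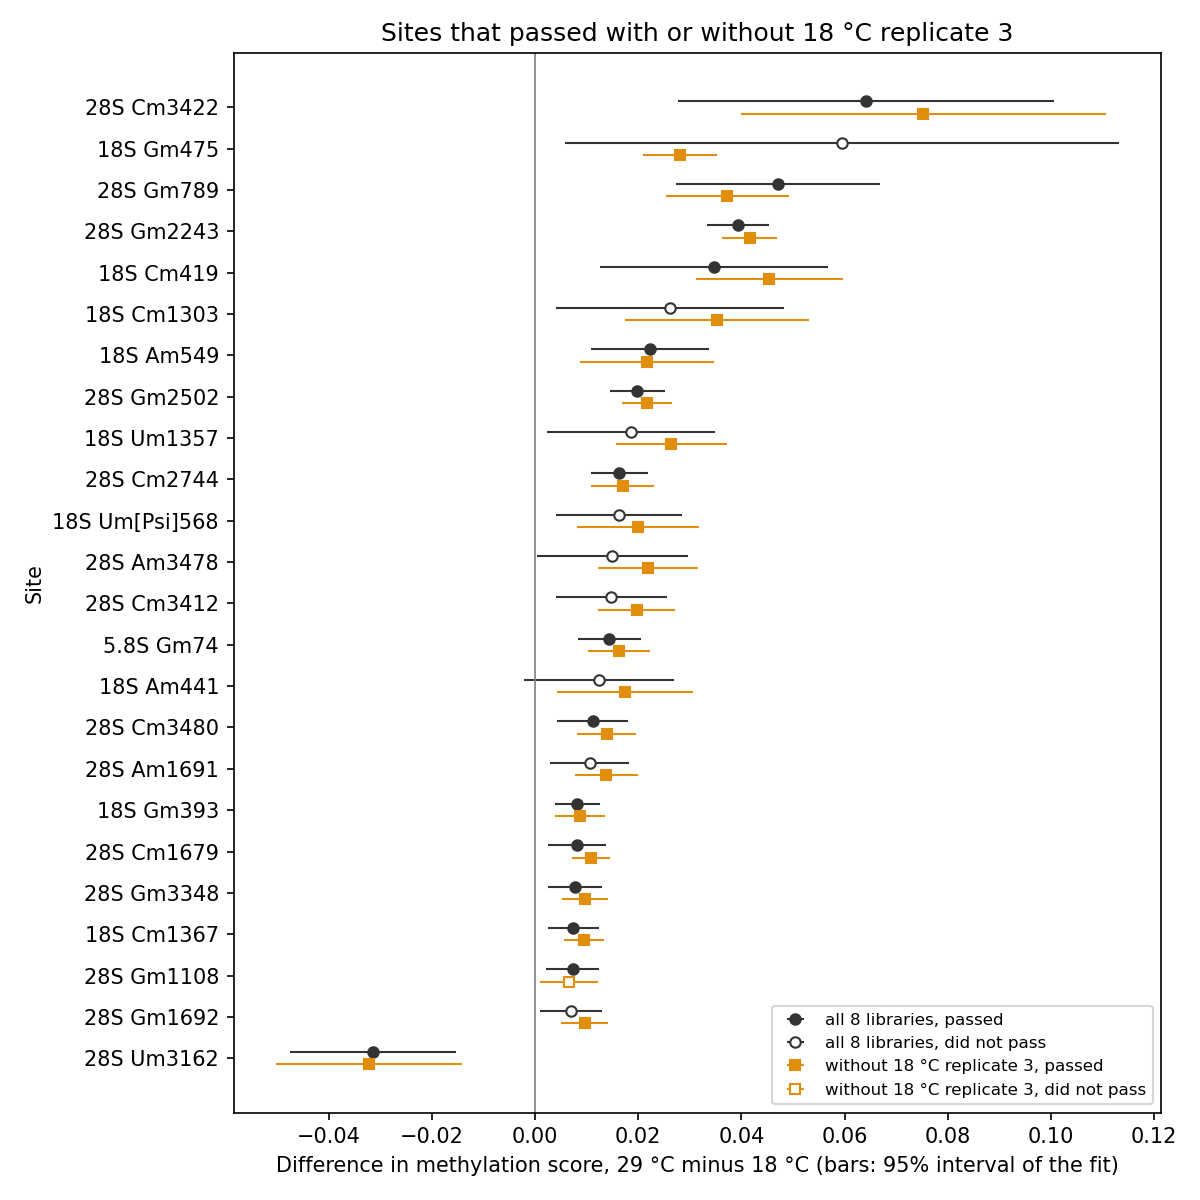
Difference in methylation score, 29 °C minus 18 °C, at the 24 sites that passed with all 8 libraries (black circles), without 18 °C replicate 3 (orange squares), or with both. Filled symbols passed at an adjusted p under 0.05, open ones did not, and bars are 95% intervals of the limma fit. Only 28S Um3162 lies below 0, and the interval of 18S Gm475 is far wider with all libraries than without replicate 3.

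At many sites the interval of the difference was narrow on the score scale. The 95% interval lay within ±0.02 for 42 of the 72 sites and within ±0.05 for 63. These counts include called sites, such as 18S Gm393 (0.00382 to 0.0126). Called differences began at 0.00732, so an interval within ±0.02 does not show that a site was unchanged. The smallest differences were those of 28S Am3420, Gm2774, Am1347 and Um3415 and 18S Cm1096, none over 0.000578 in size. 28S Am1347 was at 0.997 in both groups, with an interval of -0.00196 to 0.00275 for the difference. 28S Am1017 differed by -0.00483 without passing (adjusted p = 0.0938). Of the 72 differences 48 were above 0.

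Averaged over the 72 sites, the score was 0.951, 0.949, 0.949 and 0.948 at 29 °C, against 0.941, 0.943, 0.939 and 0.941 at 18 °C. All 4 means at 29 °C lay above all 4 at 18 °C. The mean was 0.949 ± 0.00138 at 29 °C and 0.941 ± 0.00147 at 18 °C (SD over 4 libraries each). They differed by 0.00822 (exact permutation p = 0.0286, two-sided, the smallest that 4 against 4 libraries allow). With 18 °C replicate 3 left out, the difference was 0.00767 (exact permutation p = 0.0286, again the smallest possible). The median over sites differed by 0.0057 (exact permutation p = 0.0571), and by 0.00678 without that library (exact permutation p = 0.0286).

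The score pools both ends of the fragments, so 5′ and 3′ ends over coverage were examined separately. These are the same ends that enter the score, and they are no independent support for it. For 5′ ends, 29 of 72 sites were lower at 29 °C and 0 higher (40.3%; limma on log2 of ends over coverage). Without 18 °C replicate 3, 28 were lower and 28S Am1017 was higher (40.3%; 38.9% lower). The change was broad: the median log2 change over all 72 sites was -0.80, and 58 sites had a negative one. Per library, the median over sites was 2.21, 3.39, 2.99 and 2.004 5′ ends per 10000 reads of coverage at 29 °C, against 3.74, 3.87, 5.19 and 5.47 at 18 °C. The groups did not overlap (exact two-sided permutation p = 0.0286, the smallest possible; 0.0571 without 18 °C replicate 3). Once each library was centred on its own median, 7 sites were lower and 9 higher in 5′ ends; that step removes a difference of -0.79 between the groups' library medians on the log2 scale. Coverage itself averaged 83025 ± 15717 reads at 29 °C and 72318 ± 23782 at 18 °C (median over sites, SD, n = 4 each; exact permutation p = 0.486).

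**Figure D3:**
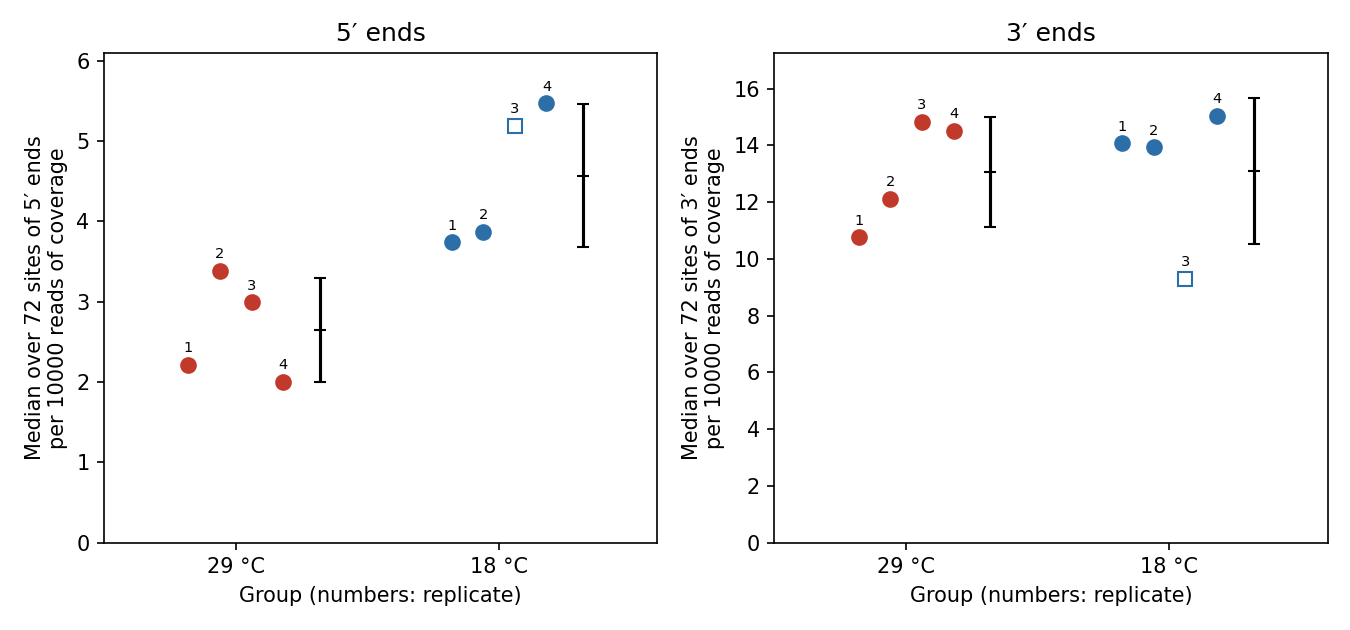
Median over the 72 sites of 5′ ends (left) and 3′ ends (right) per 10000 reads of coverage, 1 point per library, 29 °C left of 18 °C. Numbers give the replicate, the open square is 18 °C replicate 3, and the bars are mean and SD of the 4 libraries. The 5′ medians are 2.004 to 3.39 at 29 °C and 3.74 to 5.47 at 18 °C, whereas the 3′ medians overlap.

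All 14 sites with a higher score were among the 29 with fewer 5′ ends. Some of these calls rest on few ends: 28S Cm3480 had 4, 3, 8 and 0 5′ ends at 29 °C, against 10, 6, 6 and 13 at 18 °C. Among the 53 sites with a mean of at least 10 5′ ends per library, 27 were lower and 1 higher (52.8% called). At 28S Gm2243 there were 16.2, 23.6, 15.8 and 16.2 5′ ends per 10000 reads at 29 °C, against 71.0, 72.4, 61.7 and 83.3 at 18 °C, a log2 change of -2.02 (adjusted p = 1.3e-05). 28S Gm2502 had 6.85, 9.65, 10.1 and 8.28 at 29 °C, against 29.1, 27.6, 29.5 and 40.8 at 18 °C (log2 change -1.86, adjusted p = 1.91e-05). Every 29 °C library had fewer than any 18 °C library at both sites. 28S Cm3422 changed by -2.23, 18S Cm1367 by -1.83 and 28S Cm2744 by -1.51 on the log2 scale (adjusted p = 7.36e-05, 0.000101 and 7.36e-05). Among the 58 other sites 15 had fewer 5′ ends and 44 a negative change. The median log2 change was -1.38 over the higher sites and -0.46 over the others.

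For 3′ ends, 1 of 72 sites passed (1.39%; 18 at an unadjusted p under 0.05), and without 18 °C replicate 3 there were 11 lower and 1 higher (16.7%; 15.3% lower). The site was 28S Cm3422, with 20.0, 21.5, 20.8 and 20.7 3′ ends per 10000 reads at 29 °C, against 51.5, 99.4, 33.5 and 57.8 at 18 °C. Its log2 change was -1.43 (adjusted p = 0.00722). Both kinds of end were thus fewer at 29 °C at this cytidine. Replicate 2, the 18 °C library of lowest score there, had the most of each. The median log2 change of 3′ ends over the 72 sites was -0.01, with 37 sites negative. The library medians were 10.8, 12.1, 14.8 and 14.5 3′ ends per 10000 reads at 29 °C, against 14.1, 13.9, 9.30 and 15.05 at 18 °C (exact permutation p = 1.00, and 0.371 without replicate 3).

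Although few 3′ changes passed, they had the same sign at the sites with a higher score. All 14 had a negative 3′ change, with a median log2 change of -0.64, against 23 of the 58 other sites and a median of 0.13. Since 3′ ends are a part of the score, this is no independent support. After leaving out 18 °C replicate 3, all 22 higher sites had a negative 3′ change, 10 passed in 3′ ends, 17 in 5′ ends and 9 in both. At 28S Um3162, where the score was lower, 5′ ends changed by 0.03 and 3′ ends by 0.31 on the log2 scale, and neither passed (adjusted p = 0.904 and 0.265). The mean number of ends at the neighbouring positions over coverage, recovered from the score, was higher at 1 of 72 sites (1.39%; 28S Um1859, adjusted p = 0.0193) and lower at 0.

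**Figure D4:**
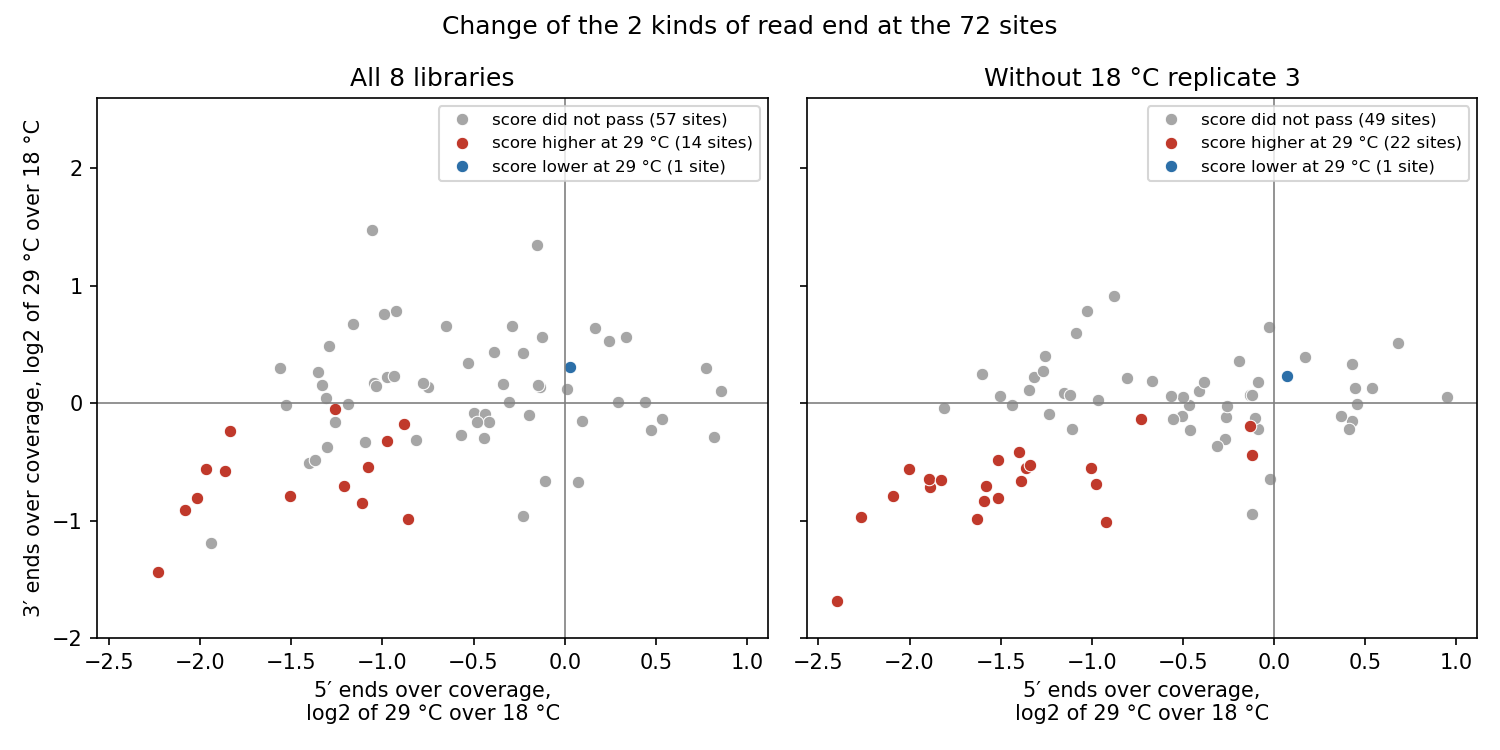
Log2 change, 29 °C over 18 °C, of 5′ ends over coverage (x axis) and of 3′ ends over coverage (y axis), 1 point per site, with all 8 libraries (left) and without 18 °C replicate 3 (right). Red points are sites with a higher score at 29 °C, the blue point is 28S Um3162, and grey points did not pass. The red points lie at negative values of both axes in both panels, and most grey points lie at negative x.

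Sites were also grouped by rRNA, base, level and annotation. By rRNA, the shares called were 16.7% in 18S and 21.3% in 28S, beside 20.8% over all sites. Without 18 °C replicate 3 they were 37.5% and 27.7%, beside 31.9%, so their order depended on that library. By base, 6 of 14 cytidines and 7 of 21 guanosines were higher, against 1 of 28 adenosines (18S Am549) and 0 of 9 uridines, where 28S Um3162 was lower. The shares called were 42.9%, 33.3%, 3.57% and 11.1%, beside 20.8% over all sites. Without 18 °C replicate 3, 8 cytidines, 8 guanosines, 4 adenosines and 2 uridines were higher. After centring, 4 cytidines were higher and 4 lower, and the guanosines split into 4 and 5, so the direction within a base depends on the scaling. The median difference was 0.00777 for cytidines, 0.00697 for guanosines, 0.00107 for adenosines and 0.00115 for uridines, against 0.00262 over all 72. No test was made of these differences between bases.

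By level, 11 of the 54 sites with a mean score of at least 0.95 were higher and 3 of the 8 between 0.9 and 0.95, whereas among the 10 sites under 0.9 none was higher and 28S Um3162 was lower. For 5′ ends the median log2 change was -0.96 for the 54 sites and 0.02 for the 10 least protected ones. Of the 59 sites for which guide RNAs are listed 13 were higher, and of the 11 of unknown guide 1 was higher and 1 lower. The shares called were 22.0% with a listed guide and 20.4% at a level of at least 0.95, close to the 20.8% over all sites. Without 18 °C replicate 3 the higher sites were 17 of the 54, 4 of the 8 and 1 of the 10 by level, and 20 of the 59 and 2 of the 11 by annotation. Neither site with a methyltransferase named in place of a guide passed. These are 28S Um[Psi]3454, for which the table names CG8939, and 28S Gm3455, annotated with SPB1 of yeast, which differed by -0.000688 and -0.0016. Over all 72 sites, a library's median number of 5′ ends per site was 17 to 23 at 29 °C and 16.5 to 35.5 at 18 °C. The median ratio of the SD between libraries to the SD from counting was 1.76 at 29 °C and 2.81 at 18 °C, so spread beyond counting was present in both groups.

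Calls were also counted over sites that share a listed guide. Of 15 pairs of sites with a guide in common, 0 had both sites called higher, 5 had one and 10 neither, where 19.4% of all sites were higher. Leaving out 18 °C replicate 3, 4 pairs had both sites higher, 6 had one and 5 neither, where 30.6% of all sites were higher. These few pairs, some with a site in common, were not tested against that share. One of the 4 pairs was 28S Am3478 and Cm3480, with 4 guides in common, which differed by 0.0150 and 0.0111 with all libraries. These positions are 2 bases apart and share neighbours in their scores. The same holds for another of the 4 pairs, 28S Am1691 and Gm1692, which are 1 base apart with 2 guides in common. 28S Cm1679 and Am1691, 12 bases apart with 1 guide in common, differed by 0.00813 and 0.0106. 18S Gm393 shared a guide with 28S Gm2774, yet differed by 0.00823 against 0.000274 there.

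At 25 °C the mean of every one of the 15 called sites lay between the other 2 groups, as it did at 36 of all 72 sites. The 15 were chosen for their difference between those groups, so this order is a description. From 18 over 25 to 29 °C, the mean of 28S Gm2502 was 0.965, 0.975 and 0.985, that of 28S Cm3422 0.905, 0.934 and 0.969, and that of 28S Um3162 0.892, 0.880 and 0.861. Of the 9 sites that passed only without 18 °C replicate 3, 18S Cm1303, Am441 and Um1357 did not follow this order, with 25 °C means of 0.903, 0.931 and 0.948 below both other groups. With that library left out the 18 °C mean of Um1357 was 0.946, below its 25 °C mean, while Cm1303 and Am441 still did not follow the order.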

How the data were processed

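Ribosomal RNA methylation was measured by RiboMeth-seq in female heads. Alkali-hydrolysed total RNA was made into small-RNA libraries, per the labels' protocols, whose text names S2R+ cells only. Trimmomatic 0.39, Bowtie2 and build dm6 come from the submitters' processing notes. No source used here states the score formula, the reads' alignment target or any filter. The authors deposited, per library, the coverage signal and the 5′ and 3′ read ends at 72 sites, without normalization, and 3 scores per site, of which the level score was used as deposited. The score was taken to be 1 minus the ends at the site over a weighted mean of the ends at 2 neighbours on each side (weights 1 and 0.9). This form was read off the values. Over the series, the neighbour sum it implies was a multiple of 0.01 in 2448 of 2448 values, within 0.0001. The neighbours' own ends were not at hand, so equality was not computed, and other weights of the same sum could pass this check. A placeholder of 0.1 for no ends, in 14 of 576 5′ and 2 of 576 3′ values, was set to 0.

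Groups came from the labels. The labels do not say what separates replicates, and p-values measure the spread between these libraries, which may be technical. No pair within a group agreed within sampling noise (lowest chi-square per degree of freedom 1.78, p = 3.66e-08). The score was tested with limma's lmFit and eBayes (version 3.58.1, R 4.3.3; two-sided; 3 temperatures in 1 fit), Benjamini-Hochberg over 72 sites, threshold 0.05; read ends on log2((ends + 0.5) / coverage). Library values used exact permutation tests (Python 3.11.15, numpy 2.4.6, pandas 2.3.3; scipy 1.17.1). The fit was tested on simulated data. Alternatives were leaving out each library, a replicate block, the 2 groups alone, other scales, centring, weights, pseudocounts, a coverage minimum of 5000, the other deposited scores and exact tests per site. Named sites were all that passed with or without 18 °C replicate 3, the 5 smallest p and 5 largest differences that did not pass, the 5 smallest differences, and the 5 smallest p per direction and kind of end. The sites, classes and the library left out were chosen with earlier results of these data known. Same-numbered libraries did not deviate together, so the numbers do not pair them.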

Additional observations from a re-analysis of the deposited data

Results flagged for a closer look

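In 5 of 68 groups of 4 libraries, at the named sites, 1 library lay apart by a gap above Dixon's 95% critical value. Chance alone gives about 1 in 20 for groups not picked by their values. The named sites were picked so, some of them through leaving out 18 °C replicate 3, and that rate is therefore no yardstick here. Of the 5, 3 were 18 °C replicate 3. At 18S Gm475 it scored 0.818518, against 0.940239 to 0.950907 in the others of its group. At 28S Gm1005 it scored 0.792209, against 0.979223 to 0.980439. At 28S Cm1679 it was instead the highest, at 0.986942 against 0.975861 to 0.97661. The other 2 were 29 °C libraries, with smaller gaps. At 28S Gm2243, 29 °C replicate 2 scored 0.982626 against 0.986713 to 0.987267, still above all 18 °C libraries. At 18S Um[Psi]568, 29 °C replicate 4 scored 0.884852 against 0.892615 to 0.892917. What set these libraries apart was not tested.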

How the results depend on the processing

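The count of 15 sites was 7 to 23 when 1 library was left out (lowest without 29 °C replicate 2, highest without 18 °C replicate 3). It was 8 with the 2 groups alone (7 higher, 1 lower), 30 after centring on library medians (9 higher, 21 lower) and 24 with library weights (22 higher, 2 lower). With 18 °C replicate 3 left out it was 23 with the 2 groups alone, 23 on the log2 scale of neighbour mean over ends and 35 after centring (15 higher, 20 lower); these combined settings were chosen after seeing the data. The exact permutation test per site gave 0 (lowest adjusted p 0.158), where at least 42 sites at its lowest p are needed to pass. The 29 sites with changed 5′ ends became 19 to 29 on leaving out 1 library (19 without 18 °C replicate 4: 17 lower, 2 higher), 16 after centring, 19 after centring without 18 °C replicate 3, and 0 by permutation (lowest adjusted p 0.098). The 1 site with changed 3′ ends became 1 to 12 on leaving out 1 library (12 without 18 °C replicate 3, 2 without 18 °C replicate 4). It was 2 with the replicate block, 0 with the 2 groups alone, 7 after centring (all lower), 2 with the neighbour mean as denominator, and 0 by permutation (lowest adjusted p 0.206). Without 18 °C replicate 3 it was 13 after centring (10 lower, 3 higher) and 14 with the neighbour mean (13 lower, 1 higher). The difference in mean score of 0.00822 kept its direction, with the median over sites at 0.0057 (exact permutation p = 0.0571), the second deposited score at 0.0184 (exact permutation p = 0.114) and the third at 0.00187 (exact permutation p = 0.0571). With the numbers taken as pairs, the difference in mean score gave an exact p of 0.125, the smallest that 4 pairs allow. With the replicate block 11 sites passed (10 higher, 1 lower), with 28 for 5′ ends. Correlations of same-numbered libraries at 29 and 18 °C were -0.129 to 0.0116, within the -0.159 to 0.223 of differently numbered ones. These correlations showed no pairing by number between the 2 groups. Replicate 4 nevertheless had the lowest median score of its group at 18, 25 and 29 °C (0.970, 0.975 and 0.977). What the numbers stand for is not labelled, and a shared batch was not tested. Among the named sites, reversed values came at 28S Gm1108, at -0.000237 on centring without 18 °C replicate 3, and on centring at sites of near-zero difference: 28S Am1347 at -0.00531 and, without 18 °C replicate 3, -0.00659; 28S Gm2774 at -0.00543 and -0.00488; 28S Um3415 at -0.00512 and -0.00586; and 28S Am3420 at -0.00651 without that library. Over all 72 sites, 5 with a difference above 0 were called lower after centring with all libraries, 28S Am2183 and Um2204 besides 3 of these, and 0 turned the other way. Sign changes without a call are not in this list and numbered 26 among the named sites. On centring with all libraries 28S Am3420 was also negative, at -0.00544, without passing (adjusted p = 0.0554, limma). Over 23 limma settings, 259 of 345 values of the 15 called sites kept direction and call, and 85 kept direction only. The cause was not tested. The ends per site bound the counting error, and their median over all 72 sites was lowest in 18 °C replicate 3, at 16.5 5′ ends.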

Other observations

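At 15 sites fewer 5′ ends at 29 °C came without a called difference in score. At 9 of them the 3′ change was above 0 with and without 18 °C replicate 3, and at 6 it was below 0, 5 of which passed in score once that library was left out. Over the 58 sites that were not higher in score, the 3′ change was below 0 at 23. The score pools both kinds of end, so this choice of sites favours a 3′ change above 0, and the split is only a description. An example with a 3′ change above 0, chosen after its values were seen, is 18S Am1061. It had 4.03, 6.73, 6.91 and 6.19 5′ ends per 10000 reads at 29 °C, against 10.2, 13.2, 12.1 and 9.63 at 18 °C. Its 3′ ends averaged 7.76 per 10000 reads at 29 °C and 4.59 at 18 °C (adjusted p = 0.275, limma). Its score differed by 0.00117 (adjusted p = 0.843).

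In 18 °C replicate 3, the 3′ ends stood at least 2 times above the highest of the other 18 °C libraries at 28S Gm789 (111 per 10000 reads against 30.5 to 38.8), 18S Gm475 (112 against 26.1 to 31.99) and 28S Gm1005 (132 against 11.3 to 14.2). At 12 sites they stood at least 2 times below the lowest, and 2 of these had no 3′ end in that library. Examples, chosen after their values were seen, are 18S Am441 (4.47 against 23.5 to 30.6) and 18S Cm1096 (3.94 against 22.8 to 35.4).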
